A study of Mus musculus with 5 samples.

Results

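The cells described here are those that the depositing authors labelled Endothelial in the muscle collected 7 days after an injection of notexin, which kills muscle fibres. They were chosen by that label alone, and there were 520 of them among 5680 annotated cells of day 7 and 17923 in the whole series. The series covered the tibialis anterior of C57Bl/6 mice, a muscle at the front of the lower leg. Day 7 came from a male aged 4 months. The other groups were females, uninjured (day 0, 4 months), at day 2 (7 months) and at day 5 (4 months) after notexin. Muscle was digested with Collagenase D and Dispase II, red cells were lysed, live cells were sorted with propidium iodide and Calcein-AM, and messenger RNA was counted by 10x 3' v2 droplet libraries with unique molecular identifiers (UMIs). There was 1 matrix per day, so no difference had a replicate or a test, intervals cover counting error only, and day cannot be told apart from sex or, for day 2, age.

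Endothelial cells line all blood vessels. In skeletal muscle most of them form capillaries, which move fatty acids, water and gas between blood and fibres, while arterial cells take up Notch signals and venules are where white cells leave the blood. After injury, vessels regrow when endothelial cells divide and lay down basement membrane, and Plvap, the protein of the diaphragms that span their small openings, is a common sign of permeable or growing vessels.

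The 520 cells held 2934496 UMIs. Their median was 4281 UMIs and 1833 genes per cell, and 2.39% of UMIs were mitochondrial. They were 9.15% of the day 7 cells. Endothelial cells numbered 1089, 58 and 100 at days 0, 2 and 5, with medians of 2203, 6688.5 and 1433 UMIs. Day 7 shared 39, 35 and 16 cell barcodes with days 0, 2 and 5, of which 7, 2 and 0 were endothelial at day 7. The doublet caller Scrublet marked 32 of the 520 cells, 6.15%, against 2.24% of all day 7 cells.

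The 5 given markers (Cdh5, Emcn, Plvap, Lrg1 and Fabp4) summed to 23726 counts per 1000000 UMIs (cpm) in the endothelial cells and to between 64.3 cpm in mature muscle and 473 cpm in tenocytes elsewhere at day 7. Cdh5, the adhesion molecule of endothelial junctions, stood at 964 cpm against 35.0 cpm in the highest other label, tenocytes. When every cell was thinned to 2000 UMIs, 84.0% of endothelial cells held a Cdh5 UMI (exact binomial 95% interval 80.6 to 87.1%), against 0.781% of fibro-adipogenic progenitors (FAPs), the connective tissue cells of muscle. Without thinning those shares were 98.1% and 2.67%, at median depths of 4281 and 7669 UMIs. Fabp4, a fatty acid binding protein, had a UMI in 99.8% of thinned endothelial cells and in 13.9% of FAPs. Plvap and Lrg1 were less widely held, with a UMI in 33.3% and 18.1% of thinned endothelial cells, against 7.22% and 0.325% of FAPs. Lrg1, a secreted glycoprotein, was not specific to the label: it stood at 235 cpm in endothelial cells and at 193 cpm in activated FAPs.

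**Figure D1:**
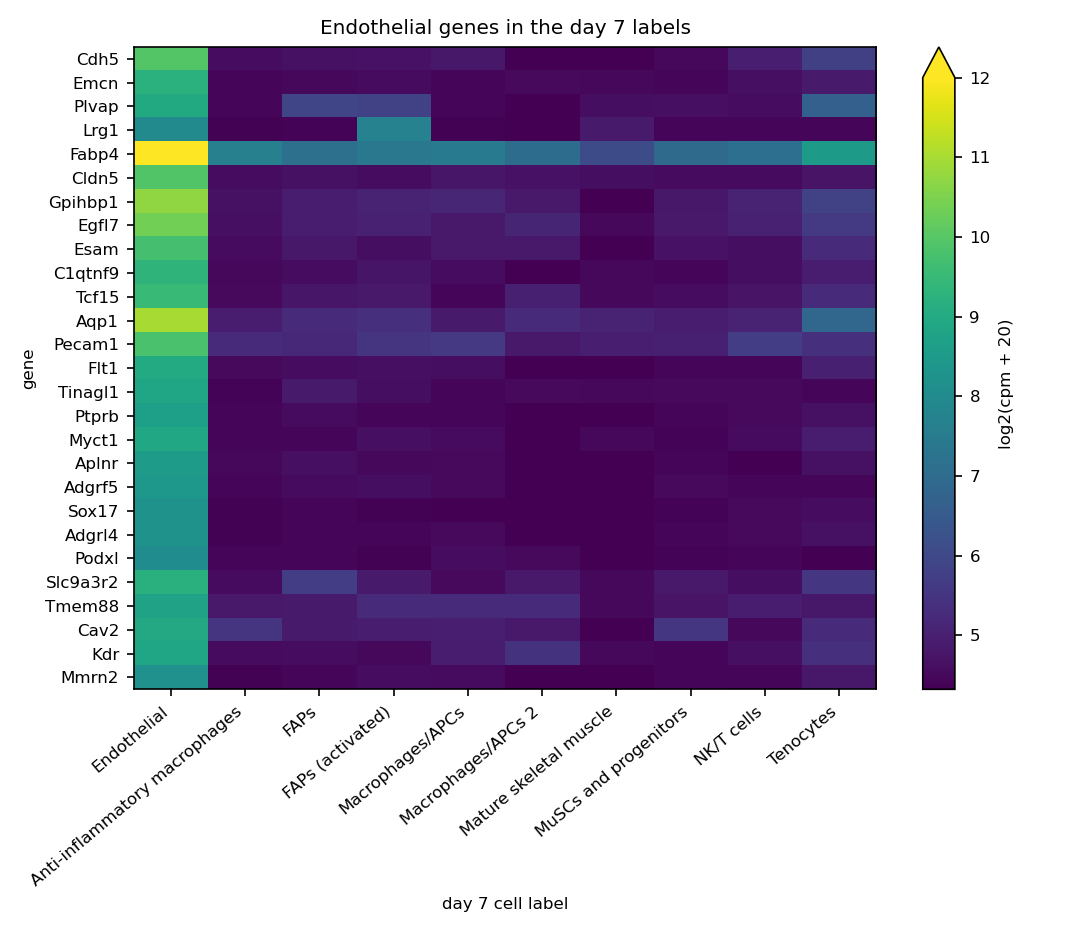
Level of 27 genes (rows) in the endothelial label and the other 9 day 7 labels (columns), as log2 of cpm plus 20 from summed UMIs. The first 5 rows are the given markers and the others have the largest ratios to the highest other label. The endothelial column is the brightest in every row, while Plvap and Lrg1 also show in FAP labels.

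RNA of other cell types was present in the label. The 9 macrophage markers summed to 3086 cpm in the endothelial cells against 48384 cpm in the anti-inflammatory macrophages, and 39 cells with at least 10 such UMIs held 88.3% of them. Markers of pericytes and smooth muscle, the cells that wrap vessels, summed to 442 cpm, of which 75.8% came from 27 cells. The 8 FAP markers summed to 799 cpm against 59378 cpm in FAPs, and Pdgfra, their receptor for platelet-derived growth factor, had a UMI in 0.192% of thinned endothelial cells. Glia markers were near 0 at 1.70 cpm. Red cell markers summed to 19.8 cpm. Mature muscle markers summed to 582 cpm, of which 60.4% came from 8 cells, and T and NK cell markers to 61.0 cpm. Antigen presentation genes, the genes lowest in dividing cells and the main counts are given below also without the 2 clusters led by macrophage and pericyte markers. Clusters 2 and 5 (89 and 55 cells), led by mature muscle and FAP markers, were kept. That check therefore covers only part of the RNA of other cell types.

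Of 1573 genes with at least 100 cpm and 50 UMIs in the endothelial cells, 151 stood at least 2-fold above every other day 7 label and 25 at least 10-fold, with 20 cpm added to both sides of each ratio. Over 6599 genes measured, that is with at least 20 cpm and 20 UMIs in the endothelial cells or in all others, 4.36% were 2-fold above every other label, 10.4% were 2-fold above all other day 7 cells together and 9.68% were 2-fold below them. The median difference from all other cells over these genes was 0.21 on the log2 scale.

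Fabp4 led the ranking, at 21467 cpm against 346 cpm in tenocytes, a 58.8-fold ratio. Cldn5, a claudin of tight junctions, followed at 944 cpm against 7.56 cpm, a 35.0-fold ratio. Gpihbp1, which anchors lipoprotein lipase on the capillary wall, stood at 1686 cpm against 36.3 cpm. Aqp1, a water channel, stood at 2031 cpm against 95.5 cpm, and Aplnr, the apelin receptor, at 348 cpm against 5.38 cpm. The VEGF receptors Flt1 and Kdr reached 501 and 447 cpm, 16.2-fold and 10.7-fold above the highest other label. Tcf15, a transcription factor of muscle capillaries, stood at 708 cpm against 17.5 cpm, and Sox17, a factor of arterial cells, at 283 cpm against 4.04 cpm. The other members of the first 25 were Egfl7, Esam, C1qtnf9, Emcn, Cdh5, Pecam1, Tinagl1, Ptprb, Myct1, Adgrf5, Adgrl4, Podxl, Slc9a3r2, Tmem88, Cav2 and Mmrn2. In the opposite direction, none of 434 genes with at least 100 cpm in every other label lay 2-fold below all of them. The lowest, Use1, stood at 173 cpm, 1.22 times below the lowest other label.

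By list, 37 of 38 measured endothelial identity genes were 2-fold above all other day 7 cells and 32 were 2-fold above every other label. The median of that list was 3.19 on the log2 scale. Lmo2, a factor shared with blood cells, was the exception at 81.8 cpm against 173 cpm in macrophages. Of the 19 capillary genes 17 were above all other cells and 13 above every label, and of 17 junction, caveola and transport genes 15 and 12. Among 17 VEGF, angiopoietin and apelin genes 13 and 10 passed, with the receptors Kdr, Flt1, Tie1 and Aplnr high and the ligand Vegfa at 2.39 cpm. The list of venous genes was mixed, with 7 of 14 above and 2 below all other cells, the latter being Bgn (134 cpm against 5424 cpm in FAPs) and Lbp (14.3 cpm against 1691 cpm in activated FAPs). Basement membrane and matrix genes were split more evenly, 9 above and 8 below of 29, where 10.4% and 9.68% of all genes measured were. None of the 60 cell cycle genes was highest in endothelial cells: 34 were highest in NK/T cells and 26 in muscle stem cells and progenitors.

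Within the label, clustering with the cell cycle genes left out gave 8 clusters of 147 to 14 cells. Names came from fixed markers: cluster 1 was capillary-like (147 cells), cluster 3 dividing-like (84), cluster 4 arterial-like (62) and cluster 6 venous-like (37). Genes of a cluster define it, so the following levels are a description. Cluster numbers run by size.

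Among the named clusters, the venous-like cells had the largest leading ratio. Selp, the P-selectin that catches white cells, stood at 900 cpm in the 37 cells and at 1.82 cpm in the other endothelial cells, with a UMI in 22 of the 37. Ackr1, a chemokine-binding receptor of venules, stood at 743 cpm against 5.09 cpm, in 21 of 37 cells. Lrg1 stood at 1947 cpm against 120 cpm, and Vwf, von Willebrand factor, at 591 cpm against 34.2 cpm. Eln, elastin, stood at 450 cpm and Slco2a1, a prostaglandin transporter, at 249 cpm against 2.55 cpm. Cldn5, high in the label as a whole, was low here at 222 cpm (interval 160 to 302), against 1314 cpm in the capillary-like cells. Gpihbp1 was also low, 542 against 2643 cpm, while Aqp1 was high at 4571 cpm. Nr2f2, the venous fate factor, stood at 255 cpm against 0 UMIs in the arterial-like cells.

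Arterial-like cells were led by Stmn2, a stathmin, at 1423 cpm against 94.2 cpm in the rest, with a UMI in 54 of 62 cells. Fbln5, an elastic fibre protein, stood at 697 against 53.3 cpm, Sema3g, a semaphorin of arteries, at 232 against 9.76 cpm, and Gja4, the gap junction protein connexin 37, at 520 against 49.9 cpm. Hey1, a Notch target, stood at 310 cpm, against 19.9 cpm in the capillary-like cells, 0 UMIs in the venous-like cells and at most 80.0 cpm, in cluster 8. Cxcl12, a chemokine, and Id1, a target of BMP signals, were at 1847 and 1445 cpm, against 804 and 573 cpm in the capillary-like cells. Nepn and Col8a1 were the other leading genes, at 361 and 295 cpm. Plvap was at its lowest in this cluster, 59.0 cpm.

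The capillary-like cluster differed least from the rest. Its leading gene, Timp4, an inhibitor of matrix proteases, stood at 313 cpm against 110 cpm, a 2.57-fold ratio, and Car4, the carbonic anhydrase of capillary walls, at 156 against 51.0 cpm. Rgcc, a regulator of cell cycle exit, stood at 1512 against 732 cpm with a UMI in 140 of 147 cells. Jam3, a junction molecule, stood at 194 against 74.2 cpm. Cxcl10, an interferon-induced chemokine, stood at 280 against 127 cpm, but only 11 cells held it and 1 of them gave 38.5% of the UMIs. The name did not hold at a coarser resolution, with 10 principal components or without Scrublet doublets, where no cluster met it, so its edges depend on the settings.

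Plvap and Lrg1 were spread beyond the venous-like cells. Plvap stood at 3123 cpm in them, but also at 330 cpm in the capillary-like and 343 cpm in the dividing-like cells, against 33.8 cpm in all uninjured endothelial cells. Lrg1 stood at 91.2 cpm in the capillary-like and 91.9 cpm in the dividing-like cells, against 8.38 cpm in uninjured endothelial cells. The arterial-like cluster held 47.9 cpm of Lrg1. Apln, the apelin ligand, was unevenly placed, at 155 cpm in cluster 5, 168 cpm in the venous-like and 78.8 cpm in the dividing-like cells and with no UMI in the arterial-like ones.

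**Figure D2:**
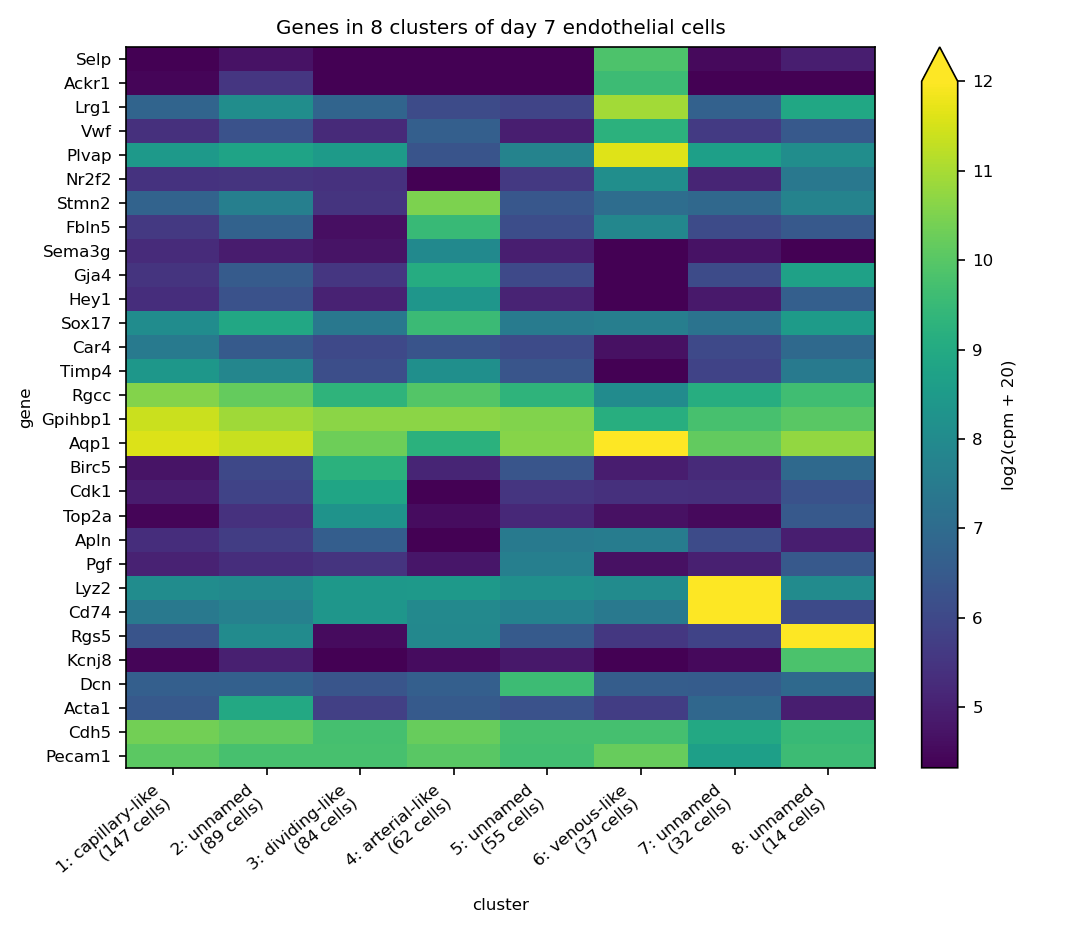
Level of 30 genes (rows) in the 8 clusters of day 7 endothelial cells (columns, with cell numbers), as log2 of cpm plus 20. Selp and Ackr1 are bright in cluster 6, Stmn2 to Hey1 in cluster 4, Birc5 to Top2a in cluster 3, Lyz2 and Cd74 in cluster 7, and Rgs5 and Kcnj8 in cluster 8.

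The remaining 4 clusters stayed unnamed because markers of another cell type led them: mature muscle in cluster 2, FAPs in 5, macrophages in 7 and pericytes in 8. Cluster 7 (32 cells, median 8917.5 UMIs, 26 Scrublet calls) held Cd74, H2-Aa and Lyz2 at 13695, 6530 and 12264 cpm beside Cdh5 at 472 cpm. Cluster 8 (14 cells, 0 Scrublet calls) held the pericyte genes Rgs5 and Kcnj8 at 5362 and 892 cpm beside Cdh5 at 709 cpm. Cluster 2 (89 cells) held muscle genes, with Mylpf, a myosin light chain, at 849 cpm in 38 of its cells and Ccl5 in 13, and had higher immediate early genes, Egr1 at 904 cpm against 176 cpm in the capillary-like cells. Cluster 5 (55 cells) held Dcn, a FAP gene, at 755 cpm, of which 1 cell gave 49.8% of the UMIs, and Pgf, placental growth factor, at 181 cpm against 37.5 cpm in the label as a whole.

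A lymphatic cell was also present. All 379 UMIs of Ccl21a, the chemokine of lymphatic vessels, came from 1 cell, which also held 5 of the 7 Lyve1, 3 of the 11 Prox1, 2 of the 93 Flt4 and 2 of the 141 Nts UMIs, had no Fabp4 UMI and was called by Scrublet. Most Prox1, Flt4 and Nts UMIs thus lay in other cells, while the Ccl21a level of the label rests on that cell.

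After thinning every cell to 2000 UMIs, 166 of 520 cells (31.9%, interval 27.9 to 36.1%) held at least 3 UMIs of the DNA replication and mitosis lists. The score is a range with no gap: 53 cells had 2 such UMIs, 31 had 3, 19 had 4 and 69 had 10 or more, up to 61. The share therefore moved with the cut, from 42.1% at 2 UMIs to 22.3% at 5, and was 18.3% with at least 2 UMIs of the mitosis list alone. Cells past the cut had a median of 5458 UMIs before thinning against 4016 in the others.

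By cluster, 82 of the 84 dividing-like cells (97.6%, interval 91.7 to 99.7%) passed. So did 23 of 147 capillary-like cells (15.6%, 10.2 to 22.5%), 4 of 62 arterial-like cells (6.45%, 1.79 to 15.7%) and 4 of 37 venous-like cells (10.8%, 3.03 to 25.4%). The last 3 intervals overlapped. Their mitosis list shares were 4.76%, 1.61% and 5.41%, with at least 2 UMIs. The markers that named cluster 3 are all in the mitosis list, so its high share follows from its name. Dividing cells of any vessel type could fall in cluster 3. The shares of the other clusters are therefore not division rates of capillary, arterial or venous cells.

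At 1000 UMIs per cell, the depth at which days can be set side by side, 19.4% of day 7 endothelial cells passed (interval 16.1 to 23.1%), against 2.02% at day 0 (1.27 to 3.04%), 10.3% at day 2 (6 of 58 cells, 3.89 to 21.2%) and 7.00% at day 5 (7 of 100 cells, 2.86 to 13.9%). The day 7 interval overlapped that of day 2 but not those of days 0 and 5. The highest count in a single cell was 28 UMIs at day 7 and 5 at day 0.

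**Figure D3:**
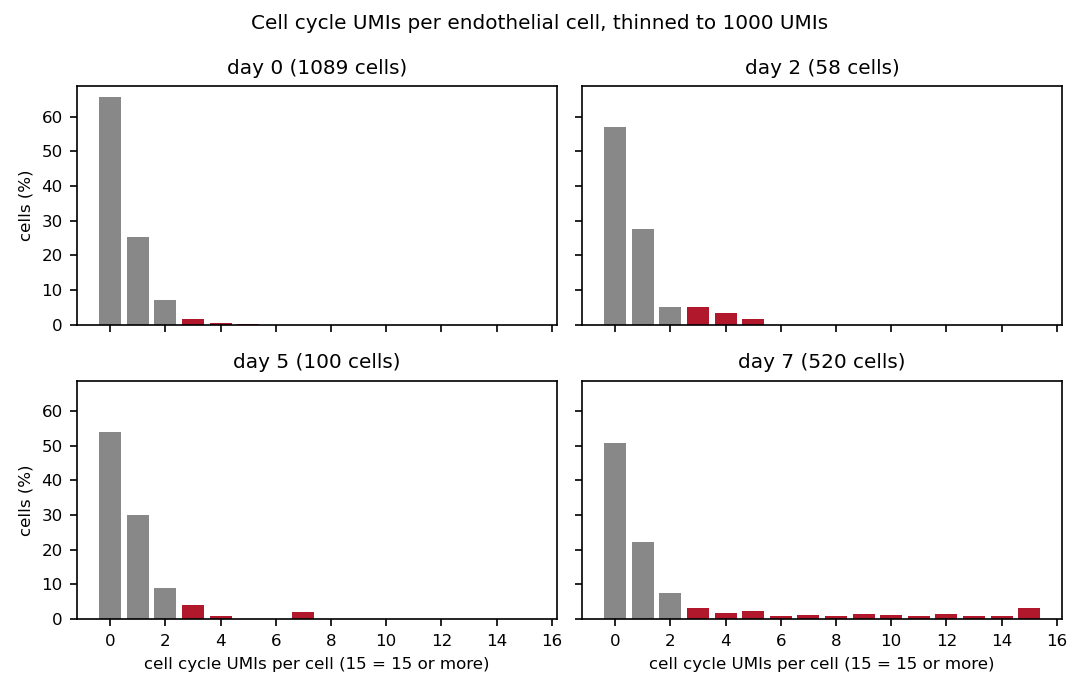
Share of endothelial cells (vertical axis, %) by the number of cell cycle UMIs each holds after thinning to 1000 UMIs (horizontal axis), for days 0, 2, 5 and 7. Bars from 3 UMIs are red. Day 7 alone among the 4 days has a tail that reaches 15 UMIs and more.

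Among the day 7 labels, the endothelial share had only 2 others above it. NK/T cells had 37.0% (interval 32.2 to 42.1%) and muscle stem cells and progenitors 33.8% (29.2 to 38.7%), both above the endothelial interval. The next label, tenocytes, had 5.68% (1.87 to 12.8%), FAPs had 1.37% and anti-inflammatory macrophages 45 of 1960 cells. The endothelial interval overlapped with none of these labels.

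**Figure D4:**
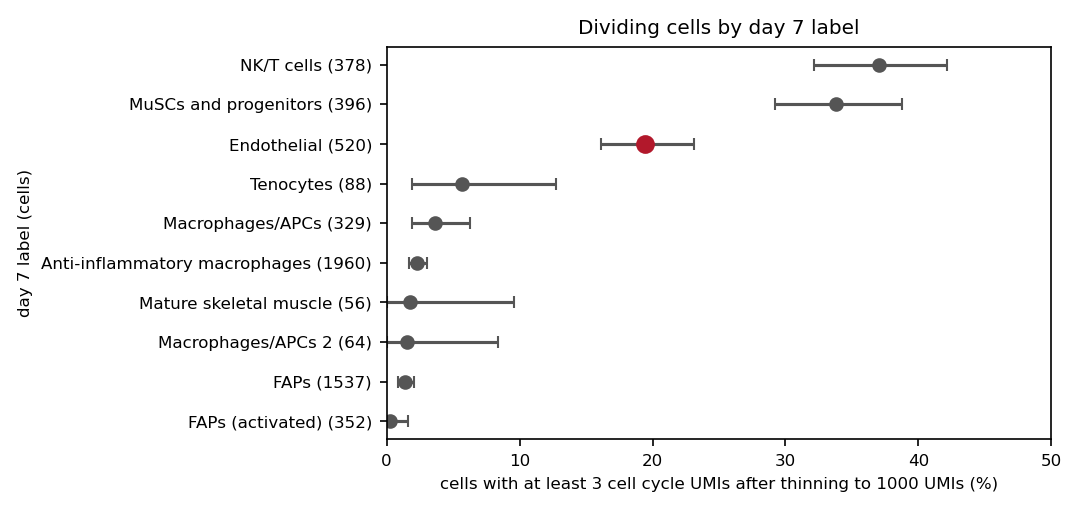
Share of cells with at least 3 cell cycle UMIs after thinning to 1000 UMIs (horizontal axis, %) in each day 7 label (rows, with cell numbers), with exact binomial 95% intervals. The endothelial point (red, 19.4%) lies between the muscle progenitors at 33.8% and the tenocytes at 5.68%.

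The mitosis genes stood higher as a list. Summed over 35 members, the endothelial level was 62.2 cpm at day 0, 478 cpm at day 2, 238 cpm at day 5 and 1424 cpm at day 7. All 35, counted with no filter on low values, had more cpm at day 7 than at day 0. Among the genes measured, which passed that filter, 43.4% did, so these shares cover unlike sets of genes. Only 24 of the 35 passed the filter on low values, and 0 of these did so at day 0, so their folds are not counted here. Birc5, survivin of the chromosomal passenger complex, stood at 1.29, 30.5, 29.0 and 142 cpm at days 0, 2, 5 and 7, and Cdk1, the mitotic kinase, at 0.967, 32.4, 11.6 and 109 cpm. Ube2c, which loads ubiquitin for the anaphase-promoting complex, stood at 1.93, 19.1, 17.4 and 81.8 cpm, and Cenpa, the centromere histone, at 14.5, 68.6, 0 and 84.9 cpm, where day 5 had 0 UMIs and a limit of 17.4 cpm.

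Of 35 mitosis genes 30 had an entry in the RefSeq promoter table (build GRCm38.p6, 250 bases before to 50 after each start). The letters CCAAT or ATTGG, the box bound by NF-Y, occurred in 25 of them (83.3%), and the CHR letters (TTTGAA and its reverse complement TTCAAA, or TTTAAA), the motif of repressed cell cycle genes, in 25 (83.3%). Both strands were searched. Both kinds of letters were in 23 (76.7%), against 41.1%, 30.6% and 12.2% for the same 3 shares over 27025 genes of the table. The DNA replication list had both in 5 of 21 (23.8%) and the endothelial identity list in 2 of 19 (10.5%). A match is a description of the letters, not evidence of binding. The 250 bases before the start of the 3 list genes with the highest endothelial level that held both are shown 5′ to 3′ on the gene's strand, with both motifs in capitals. In Ube2c a CCAAT and an ATTGG overlap.
Cdk1 (chr10:69352913-69353162, minus strand): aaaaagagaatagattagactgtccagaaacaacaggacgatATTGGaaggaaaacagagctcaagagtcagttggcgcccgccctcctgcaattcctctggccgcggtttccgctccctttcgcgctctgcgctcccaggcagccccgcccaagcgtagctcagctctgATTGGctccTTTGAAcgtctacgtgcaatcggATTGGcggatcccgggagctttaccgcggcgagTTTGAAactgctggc
Cenpa (chr5:30666636-30666885, plus strand): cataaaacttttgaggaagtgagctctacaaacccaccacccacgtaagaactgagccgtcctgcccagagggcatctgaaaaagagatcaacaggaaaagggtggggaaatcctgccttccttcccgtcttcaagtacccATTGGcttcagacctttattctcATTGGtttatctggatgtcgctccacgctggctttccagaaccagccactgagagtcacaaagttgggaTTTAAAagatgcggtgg
Ube2c (chr2:164769679-164769928, plus strand): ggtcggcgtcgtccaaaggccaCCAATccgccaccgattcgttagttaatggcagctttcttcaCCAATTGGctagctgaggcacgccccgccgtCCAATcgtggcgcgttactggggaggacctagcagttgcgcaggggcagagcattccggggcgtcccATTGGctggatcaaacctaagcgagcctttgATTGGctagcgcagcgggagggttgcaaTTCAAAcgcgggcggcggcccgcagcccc
In all, 10 of the 25 genes with CHR letters had them within the last 50 bases before the start, as Cdk1, Cenpa and Ube2c do.

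Of 6286 genes measured, 3.34% were 2-fold above the other endothelial cells and 0.541% 2-fold below. Of the 6228 outside the cell cycle lists, which chose the cells, 155 (2.49%) were 2-fold above. Stmn1, a tubulin-binding protein, stood at 1067 against 52.5 cpm, Hmgb2, a chromatin protein, at 928 against 145 cpm, Gmnn, the licensing inhibitor geminin, at 192 against 14.8 cpm, and Lmnb1, a nuclear lamin, at 157 against 14.8 cpm. 2810417H13Rik, Spc24, Cks1b, Fam64a and Smc2 were also among the 10 largest ratios. Ccl21a topped that ranking only through the single lymphatic cell above, which passed the cut. Lower in dividing cells were Mgp, Stmn2, Cxcl10, Fbln5 and Fmo2, by 3.78, 3.56, 2.90, 2.75 and 2.50 times. Mgp rested on 1 cell of cluster 5, which held 256 of its 685 UMIs: without that cell it was 2.25 times lower, and without the 9 cells with at least 20 FAP marker UMIs 1.57 times lower. Stmn2, Cxcl10, Fbln5 and Fmo2 stayed between 2.44 and 3.42 times lower without the cell that held most of each. Without clusters 7 and 8 these 5 genes were 2.61 to 4.09 times lower. Of the lists, 7 of 20 arterial and 5 of 13 venous genes were 2-fold lower, against 0.541% of all genes measured, while no measured capillary, tip cell or basement membrane gene passed 2-fold. Cdh5 stood 1.24 times lower and Aplnr at a ratio of 1.01.

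Against uninjured endothelial cells, 184 of 6480 measured genes (2.84%) stood at least 2-fold higher at day 7 and 235 (3.63%) at least 2-fold lower. The median over all of them was -0.06 on the log2 scale. The comparison has 1 matrix and 1 sex on each side. Among identity genes, 3 of 38 were higher (Plvap, Lrg1 and Mcam) and 1 was lower (Sox18). Lrg1, at 8.38 cpm at day 0, passed the filter on low values only through day 7. Cdh5 stood at 1048, 621, 1570 and 964 cpm at days 0, 2, 5 and 7, and Fabp4 at 19386, 14479, 21022 and 21467 cpm. Days 2 and 5 rest on 524916 and 172583 UMIs.

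Among genes enriched in endothelial cells at day 0, Cyp26b1 followed 4 hemoglobin genes in the smallest ratios to day 0. Cyp26b1, the enzyme that breaks retinoic acid down, stood at 478 cpm at day 0 (interval 454 to 503) and at 5.72, 29.0 and 8.52 cpm at days 2, 5 and 7, where it rested on 3, 5 and 25 UMIs. Its log2 ratio of day 7 to day 0 was -5.81 (interval -6.44 to -5.24). Every injured day lay below day 0 without overlap. The lower level was not particular to endothelial cells: all other cells together held Cyp26b1 at 89.0, 4.51, 29.1 and 2.61 cpm at days 0, 2, 5 and 7. Dhrs3, which turns retinal back to retinol, stood at 442, 160, 46.4 and 101 cpm, a log2 ratio of -2.13 (-2.32 to -1.95). In all other cells together Dhrs3 stood at 141, 183, 46.3 and 116 cpm. Rbp7, a retinol-binding protein, stood at 243 and 289 cpm at days 0 and 7. Other named genes that were lower were Slc28a2, a nucleoside transporter (202 to 47.0 cpm), and Klf2, the factor induced by blood flow (3294 to 998 cpm). Of the hemoglobin genes, Hbb-bs stood at 2760 cpm at day 0 and 12.3 cpm at day 7. All other day 0 cells together held it at 452 cpm, and all other day 7 cells at 108 cpm. Hemoglobin genes are red cell markers, and whether this RNA came from red cells was not tested. Xist, made from the inactive X chromosome of females, had 1722 UMIs at day 0 and 0 at day 7, and stood at 680 and 817 cpm at days 2 and 5, which matches the labelled sexes.

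Capillary genes were lower more often than higher, 5 against 1 of 19, where 3.63% and 2.84% of all genes measured were. Car4 stood at 392, 74.3, 23.2 and 72.6 cpm, Timp4 at 587, 116, 40.6 and 152 cpm, Aqp1 at 5810, 1387, 3077 and 2031 cpm, and Tcf15 at 1779, 299, 632 and 708 cpm. Aqp7 stood at 448 and 141 cpm at days 0 and 7. Gpihbp1 (2125 and 1686 cpm) and Cd36, the fatty acid receptor (1568 and 994 cpm), differed by less than 2-fold. Fabp5, a second fatty acid binding protein, was the 1 higher, at 709, 3212, 510 and 1858 cpm.

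Of 23 measured members of the Notch, Wnt and BMP list 4 were 2-fold lower and 0 were higher. The 4 were the BMP-induced Id1, Id2 and Id3 and the Notch target Hes1. Over all genes measured, 3.63% were lower and 2.84% higher. Id1 stood at 1170, 730, 562 and 513 cpm (log2 ratio of day 7 to day 0 -1.19, interval -1.28 to -1.10), Id3 at 2690, 1097, 1153 and 1204 cpm, Id2 at 336 and 153 cpm, and Hes1 at 472, 145, 313 and 153 cpm. With 20 cpm added, other targets differed by less than 2-fold, with Hey1 at 92.5 and 50.1 cpm, Nrarp at 203 and 155 cpm and Smad7 at 112 and 51.1 cpm at days 0 and 7. The VEGF receptors, which are not in this list, were also lower by less than 2-fold. Kdr stood at 765 and 447 cpm and Flt1 at 960 and 501 cpm at days 0 and 7. Immediate early genes were also lower, 16 of 20 with 0 higher, among them Klf4 at 941 and 273 cpm. The list holds genes that respond to tissue digestion, and its part in these differences was not tested.

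Of the 21 measured tip cell and angiogenic genes 3 were higher (Apln, Plvap and Mcam) and 2 lower (Adm and Igfbp3). Of 18 VEGF, angiopoietin and apelin genes 1 was higher (Apln) and 1 lower (Adm), with a median of -0.45 on the log2 scale. In both lists Apln, below the 20 cpm minimum at day 0, was measured only through day 7, where it was higher. Over all genes measured, 2.84% were higher and 3.63% lower. Adm, adrenomedullin, stood at 131, 57.2, 46.4 and 40.2 cpm at days 0, 2, 5 and 7, and Igfbp3, which binds insulin-like growth factors, at 401 and 179 cpm at days 0 and 7. Dll4, the Notch ligand of tip cells, and Angpt2, an angiopoietin, stood below day 0 by less than 2-fold with 20 cpm added, at 137 and 68.8 cpm and at 38.7 and 21.1 cpm. Apln stood at 14.2, 38.1, 81.1 and 61.0 cpm and its receptor Aplnr at 169, 183, 197 and 348 cpm, a 1.95-fold ratio. Col15a1 and Col18a1, basement membrane collagens, stood at 82.5, 227, 962 and 401 cpm and at 6.77, 70.5, 63.7 and 57.3 cpm. Their log2 ratios of day 7 to day 0 were 2.28 (2.09 to 2.48) and 3.08 (2.42 to 3.81). Igfbp7, a secreted matrix protein, stood at 4661, 7308, 4995 and 11228 cpm. Col4a1 was highest at day 5, at 2949 cpm, and stood at 592 and 970 cpm at days 0 and 7. Mcam, a cell adhesion molecule, stood at 93.8, 91.4, 493 and 211 cpm. Fn1, fibronectin, was lower, at 304, 141, 127 and 62.0 cpm, and so was Mmp2. Without Scrublet doublets Fn1 stood at 208 and 55.7 cpm and Mmp2 at 73.4 and 22.7 cpm at days 0 and 7. At 1000 UMIs per cell the FAP gene Pdgfra had a UMI in 1.65% of day 0 and 0.577% of day 7 endothelial cells. The part of FAP RNA in the lower levels was not tested. Over the matrix list 3 of 27 members were higher and 2 lower, beside the shares over all genes given above. Col18a1, 1 of the 3, was measured only through day 7.

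**Figure D5:**
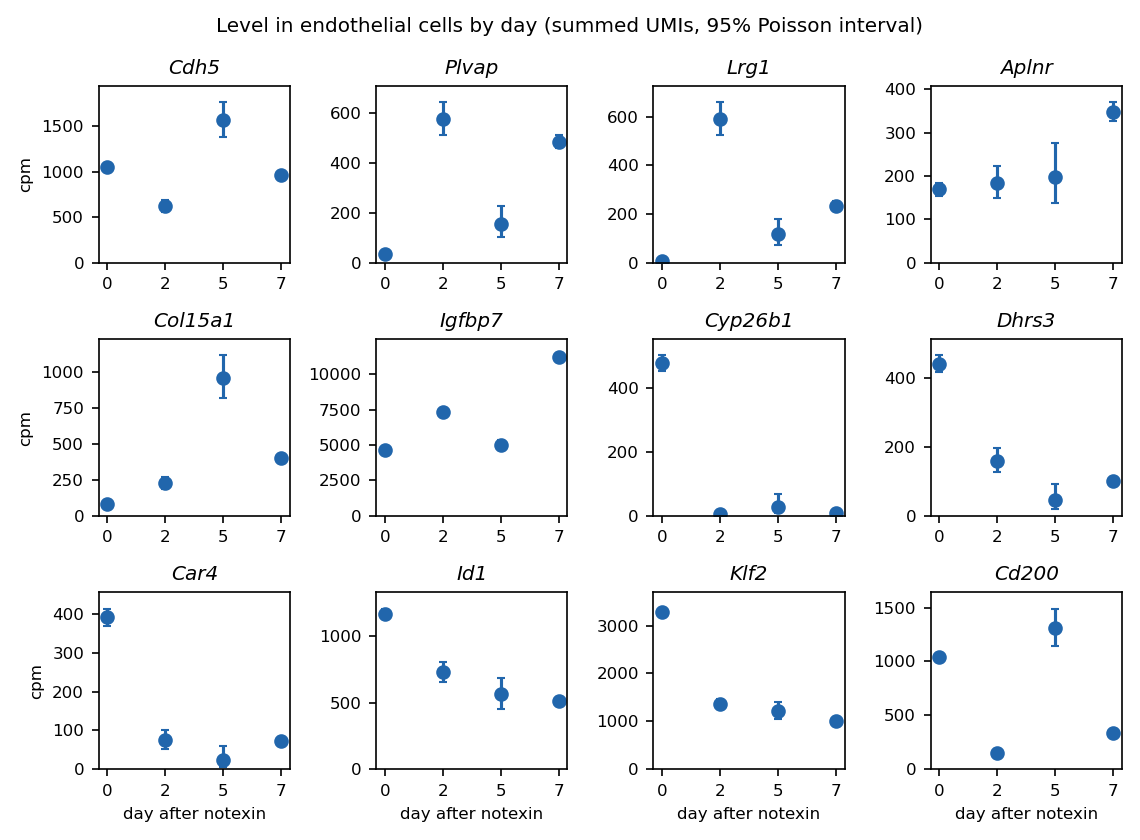
Level of 12 genes in endothelial cells (vertical axes, cpm from summed UMIs) at days 0, 2, 5 and 7 after notexin (horizontal axis), with 95% Poisson intervals. Plvap, Lrg1, Aplnr, Col15a1 and Igfbp7 lie above day 0 at day 7, Cyp26b1, Dhrs3, Car4, Id1, Klf2 and Cd200 lie below it, and Cdh5 moved from 1048 to 964 cpm.

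Plvap and Lrg1 had the largest ratios of genes enriched in endothelial cells at day 7, 9.39-fold and 8.98-fold. That enrichment was asked at day 7 alone, so the ranking describes genes chosen for a high day 7 level. At day 0 they stood at 33.8 and 8.38 cpm, below the 52.7 and 15.3 cpm of all other cells together. Plvap had a UMI in 22.5% of day 7 and 1.56% of day 0 cells at 1000 UMIs each, and in 3.58% and 1.85% of FAPs. The named genes after the cell cycle ones were Fam167b (6.77 to 131 cpm), AA467197 (34 UMIs at day 0 and 330 at day 7, 4.28-fold), Upp1, a uridine phosphorylase (9.02 to 102 cpm), and Tmem252 (15.8 to 128 cpm). All 4 were also higher at day 2 than at day 0.

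Leukocyte traffic genes went both ways, 4 higher and 6 lower of 26, where 2.84% and 3.63% of all genes measured were. The 4 were Selp, Ackr1, Cxcl10 and Cxcl16. Selp and Ackr1 passed the filter on low values only through day 7, where they were higher. Cxcl16 had a ratio of 1.59 without the clusters led by macrophage and pericyte markers. The count of higher genes is therefore no result about the list. Selp stood at 0.322 cpm (1 UMI), 87.6, 17.4 and 58.3 cpm at days 0, 2, 5 and 7, a log2 ratio of 7.50 with a wide interval (5.00 to 12.81), and Ackr1 at 7.41, 103, 17.4 and 51.5 cpm. Ehd4, a membrane trafficking protein from the caveola and transport list, stood at 62.8, 284, 86.9 and 225 cpm, and at 1242 cpm in the venous-like cells. Cd200, a brake on macrophages, stood at 1043, 152, 1310 and 337 cpm. The chemokine genes Ccl7, Cxcl1 and Ccl2 were lower at day 7, at 7.50, 85.9 and 35.8 cpm against 155, 409 and 143 cpm. Jam2 and Ackr3 were lower too.

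MHC class II antigen presentation genes were concentrated in the macrophage-marked cells. Cd74, H2-Aa, H2-Ab1 and H2-Eb1 are among the 10 leading genes of cluster 7, so leaving it out lowers them by construction. Cd74, the invariant chain of MHC class II, stood at 523 cpm at day 0 and 1744 cpm at day 7, a 3.25-fold ratio. Without clusters 7 and 8 (46 cells) the day 7 level was 210 cpm and the ratio 0.424. H2-Aa, H2-Ab1 and H2-Eb1 went from ratios of 4.23, 3.84 and 4.38 to 0.685, 0.695 and 0.842, with no such cells removed from day 0. Leaving out Scrublet doublets at both days gave 1.39 for Cd74 and 1.86, 1.61 and 1.77 for the others. Cxcl16 went from 2.36 to 1.59. Class I genes did not depend on those cells: H2-K1 stood at 1269 cpm at day 0 and at 1915 cpm at day 7 with and 1936 cpm without them, and B2m at 4632, 7677 and 7680 cpm. Ifi27l2a and Irf7, interferon-induced genes, were higher at day 7, at 457 and 238 cpm against 137 and 101 cpm, and Irf1 was lower.

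Without the 2 clusters, 165 genes in place of 151 stood 2-fold above every other label, and 62 in place of 80 genes of at least 100 cpm stood 2-fold above day 0. The dividing share was 31.4% in place of 31.9%. Plvap and Lrg1 kept ratios of 9.80 and 9.42 to day 0.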

How the data were processed

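Single-cell RNA of the tibialis anterior was measured in 1 matrix per day (day 0 pools 2 runs that cannot be told apart). Per the submitters' processing notes the build was mm10, and the tools included Seurat 2.3.4, Cell Ranger 2 and R 3.6.2. The values used are the deposited raw UMI counts per gene and cell, and the metadata deposited by the authors give each cell's label, its total UMI count and its mitochondrial share as a fraction. Metadata columns for genes per cell or for injury, 8 in all, were not used. Matrices held 5986701 to 57723171 UMIs. Barcodes without metadata (9 at day 7) were left out.

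Counts were summed over the cells of a label or cluster and expressed in cpm. Ratios had 20 cpm added to both sides, and 2-fold counted as past the fold. Intervals are exact (Poisson for levels, Clopper-Pearson for shares and for the split of 2 counts, scipy 1.17.1), at 95%. A count of 0 allows up to 3 counts. Cells were thinned at random (seed 1) to fixed UMI numbers, and no cell was too shallow except at 4000 UMIs. Clusters used scanpy 1.11.5: genes in at least 5 cells, total 10000 and log, 2000 variable genes of which 1960 remained without the cell cycle lists, 15 principal components, 15 neighbours, Leiden resolution 0.5 (igraph 0.11.9). A name needed 3 or more markers of an endothelial type that stood 2-fold above the other endothelial cells with a UMI in at least 25% of its cells, 1 or more of them among its 10 leading genes, and no other type with more there. This 25% rule was chosen after the data were seen, like the genes of the plots and of the thinned shares. Doublets were kept in the main values. Scrublet (expected 6%) called under 0.5% of cells at days 2 and 5, where it has not worked. The ratio and interval code was tested on simulated data.

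Named genes were those of 17 lists, the 25 with the largest ratio to the highest other label (100 cpm and 50 UMIs), the 5 with the smallest ratio to the lowest, the 10 largest and 10 smallest of day 7 to day 0 among endothelial-enriched genes, 6 per cluster, and the 10 largest and 5 smallest for dividing cells. For the ranking of day 7 to day 0, enrichment was asked at the higher day only. The members, lists and markers were chosen with earlier results of these data known. Missing list or marker genes were Mmrn1, Apcdd1, Glycam1, Madcam1, Ocln, Trbc2 and Gp9. Promoter sequences are from RefSeq, GRCm38.p6, matched by symbol.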

Additional observations from a re-analysis of the deposited data

How the results depend on the processing

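With 1 matrix per day no replicate could be left out. No paired analysis was possible because the days have 1 matrix each and no result comes from a test. The 151 genes above every other label were 163 to 167 with 5 cpm added, with means over cells and without doublets or the 2 clusters led by macrophage and pericyte markers, and 288 with no minimum level. The 80 genes of at least 100 cpm that were higher at day 7 than at day 0 were 184 with no minimum, and 62 to 69 under the other alternatives. The 166 lower ones were 136 to 235. Leaving out cells past the division cut at both days, an alternative chosen after the data were seen like that of the 2 clusters, gave 65 and 136.

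The dividing share of 31.9% was 42.1% with 2 UMIs, 22.3% with 5, 19.4% thinned to 1000 UMIs, 51.2% thinned to 4000 (291 cells), 52.3% not thinned, and 18.3% on the mitosis list alone, chosen after the data were seen. By construction deeper cells reach a fixed number of UMIs more often.

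Venous-like cells numbered 36 to 47 (37 in the main setting) and arterial-like cells 48 to 70 (62). Capillary-like cells numbered 147, but 0 at resolution 0.3, with 10 components and without Scrublet doublets, 58 at resolution 0.8, and 124 and 161 otherwise. The cause was not tested. Of 365 named genes, 24 moved over 1.5 times without Scrublet doublets and 12 without the 2 clusters, mainly MHC class II, Cxcl16 and genes with few UMIs. Leaving out single cells and marker-bearing cells for the leading genes of dividing cells was also chosen after the data were seen. Days 2 and 5, with 58 and 100 endothelial cells, limit all values of those days.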

Other observations

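Ligands that endothelial cells can send to other cells summed to 2911 cpm at day 0 (interval 2851 to 2971) and 1814 cpm at day 7 (1766 to 1864), over 26 genes of which 4 had more cpm at day 7. Apln passed the filter on low values only through day 7. Of the 19 ligands measured, 1, Apln, was 2-fold higher and 0 were 2-fold lower, where 2.84% and 3.63% of all genes measured were. The median was -0.52 on the log2 scale beside -0.06 over all genes. Kitl, the stem cell factor, stood at 375 and 251 cpm, Tgfb1 at 193 and 189 cpm, and Hbegf at 145 and 93.7 cpm. At day 7, 9 of 19 stood 2-fold above all other day 7 cells and 6 above every other label. Over all genes measured these shares were 10.4% and 4.36%. Pdgfb, which recruits pericytes, stood at 111 cpm against 29.8 cpm in the highest other label. Hgf and Rspo3 had 1 and 2 UMIs in the 520 cells.

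Of 15 measured lipid and fuel genes 3 stood 2-fold above every other label, Fabp4, Gpihbp1 and Cd36, against 4.36% of all genes measured. The median of the list against all other day 7 cells was 0.065 on the log2 scale, beside 0.21 over all genes measured. Ldha stood at 535 cpm and Gapdh at 347 cpm, against 3020 and 3507 cpm in mature muscle. Lpl, the lipase that Gpihbp1 holds on the capillary wall, was higher in FAPs, at 559.5 cpm against 324 cpm in endothelial cells.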
